A study of Homo sapiens with 12 samples.

Results

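FOXA1 binding at the FKBP5 locus of LNCaP cells was described from chromatin immunoprecipitation followed by sequencing (ChIP-seq). The locus was taken as the hg19 window chr6:35530000-35720000. Peaks of all 12 libraries whose centre lay in the window were used, and peaks that shared at least 1 base were merged. This gave 26 regions made from 94 peaks, of 178794 merged regions in the whole series. They are numbered 1 to 26 here in order of position, from chr6:35550408-35550875 (region 1) to chr6:35701499-35701890 (region 26), and are 289 to 637 bases wide.

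LNCaP is a human prostate cancer line that responds to androgens. In 8 libraries endogenous FOXA1 was precipitated with a FOXA1 antibody after 7 days of treatment, with 2 libraries per group: 1 µM EPZ-6438 (tazemetostat, which inhibits EZH2, the Polycomb histone methyltransferase) with 3 µM P5091 (which inhibits USP7, a deubiquitinase), called the combination here; EPZ-6438 alone at 1 µM; P5091 alone at 3 µM; and DMSO, the solvent control. In the other 4 libraries an HA-tag antibody was used 5 days after infection, with 1 library per condition: a short hairpin against FOXA1 (shFoxA1) with a K295A-substituted, HA-tagged FOXA1, shFoxA1 with HA-tagged wild-type (WT) FOXA1, shFoxA1 alone, and the pGIPZ control vector. The pair without a tagged protein gives the background of the HA antibody. The series title names the stability of the FOXA1 protein, and Polycomb, BUB3 and USP7 as acting on it; FOXA1 levels were not analysed here, so the knockdown was not checked. Whether replicates came from separate cultures is not given in the labels, so every p-value here measures only the spread between these libraries, which may be technical.

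FKBP5 encodes FKBP51, an immunophilin and co-chaperone of HSP90 that acts on steroid receptor complexes and lowers the sensitivity of the glucocorticoid receptor. It is a classical target of the androgen receptor in prostate cells and of the glucocorticoid receptor in many tissues, and both receptors act on it through enhancers that lie far from the promoter, within introns and flanking sequence. FOXA1 is a forkhead pioneer factor that binds enhancers in closed chromatin and opens them for such receptors, which is why its sites at an androgen-induced gene are of interest.

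The FKBP5 promoters show what the gene's start sites hold by way of motifs. RefSeq (GRCh38.p14) lists 2 of them for FKBP5, on the minus strand, each given as 300 bases from 250 before the start to 50 after it. In the sequences the hexamer AGAACA, the core of the androgen and glucocorticoid receptor element, is in capitals wherever it or its reverse complement occurs.
FKBP5 promoter, GRCh38.p14 chr6:35728534-35728833, minus strand: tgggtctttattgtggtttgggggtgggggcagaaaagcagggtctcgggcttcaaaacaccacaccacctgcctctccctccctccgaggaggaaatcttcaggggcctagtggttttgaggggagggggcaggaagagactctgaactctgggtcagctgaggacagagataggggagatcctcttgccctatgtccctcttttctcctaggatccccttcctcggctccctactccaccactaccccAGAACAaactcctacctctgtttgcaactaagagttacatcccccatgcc
FKBP5 promoter, GRCh38.p14 chr6:35688866-35689165, minus strand: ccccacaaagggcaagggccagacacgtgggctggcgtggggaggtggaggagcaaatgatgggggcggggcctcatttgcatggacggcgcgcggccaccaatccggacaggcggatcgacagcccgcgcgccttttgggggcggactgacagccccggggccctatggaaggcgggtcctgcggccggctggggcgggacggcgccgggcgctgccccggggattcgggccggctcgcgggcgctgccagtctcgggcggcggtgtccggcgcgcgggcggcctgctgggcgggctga
Searched on both strands, the forkhead motifs TGTTTAC and TATTTAC occurred in neither, and they occur in 3.42% and 2.67% of the 35116 RefSeq promoters of this length. AGAACA occurred once, in the upper sequence, and is held by 14.8% of promoters. The full palindromic receptor element, which can overlap the hexamer, occurred in neither and is held by 0.39%. The upper sequence is 55.7% G and C and the lower 76.0%, against a median of 58.7% over all promoters. A match describes letters and no binding. The peaks are in hg19 and these sequences in another build, so which region lies at a promoter, exon or intron of FKBP5, and the sequence under the peaks, were not analysed here.

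The FKBP5 window held many FOXA1 regions, each of them called in some of the FOXA1 libraries only. Of its 26 regions 22 had a peak in at least 1 FOXA1 library and 4 had peaks in HA libraries alone. When the chromosomes were tiled into 15986 windows of the same length, the median window held 8 FOXA1 regions and 98.2% of windows held fewer than 22. Of regions called in both DMSO libraries the FKBP5 window held 6, the median of such windows being 3, and 76.1% of windows held fewer. No region of the FKBP5 window was called in all 8 FOXA1 libraries, a property of 17.2% of the 140823 FOXA1 regions of the genome. Calls in a single library made up 22.7% of the window's regions, against 26.4% over the genome, and 36.4% were called in at least 4 libraries, against 51.5%. Combination replicate 1 had no peak in the window, so regions there could be called in at most 7 libraries, which affects these shares. In all 7 other libraries 3 of the 22 regions were called (13.6%), against 26.8% over the genome.

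**Figure D1:**
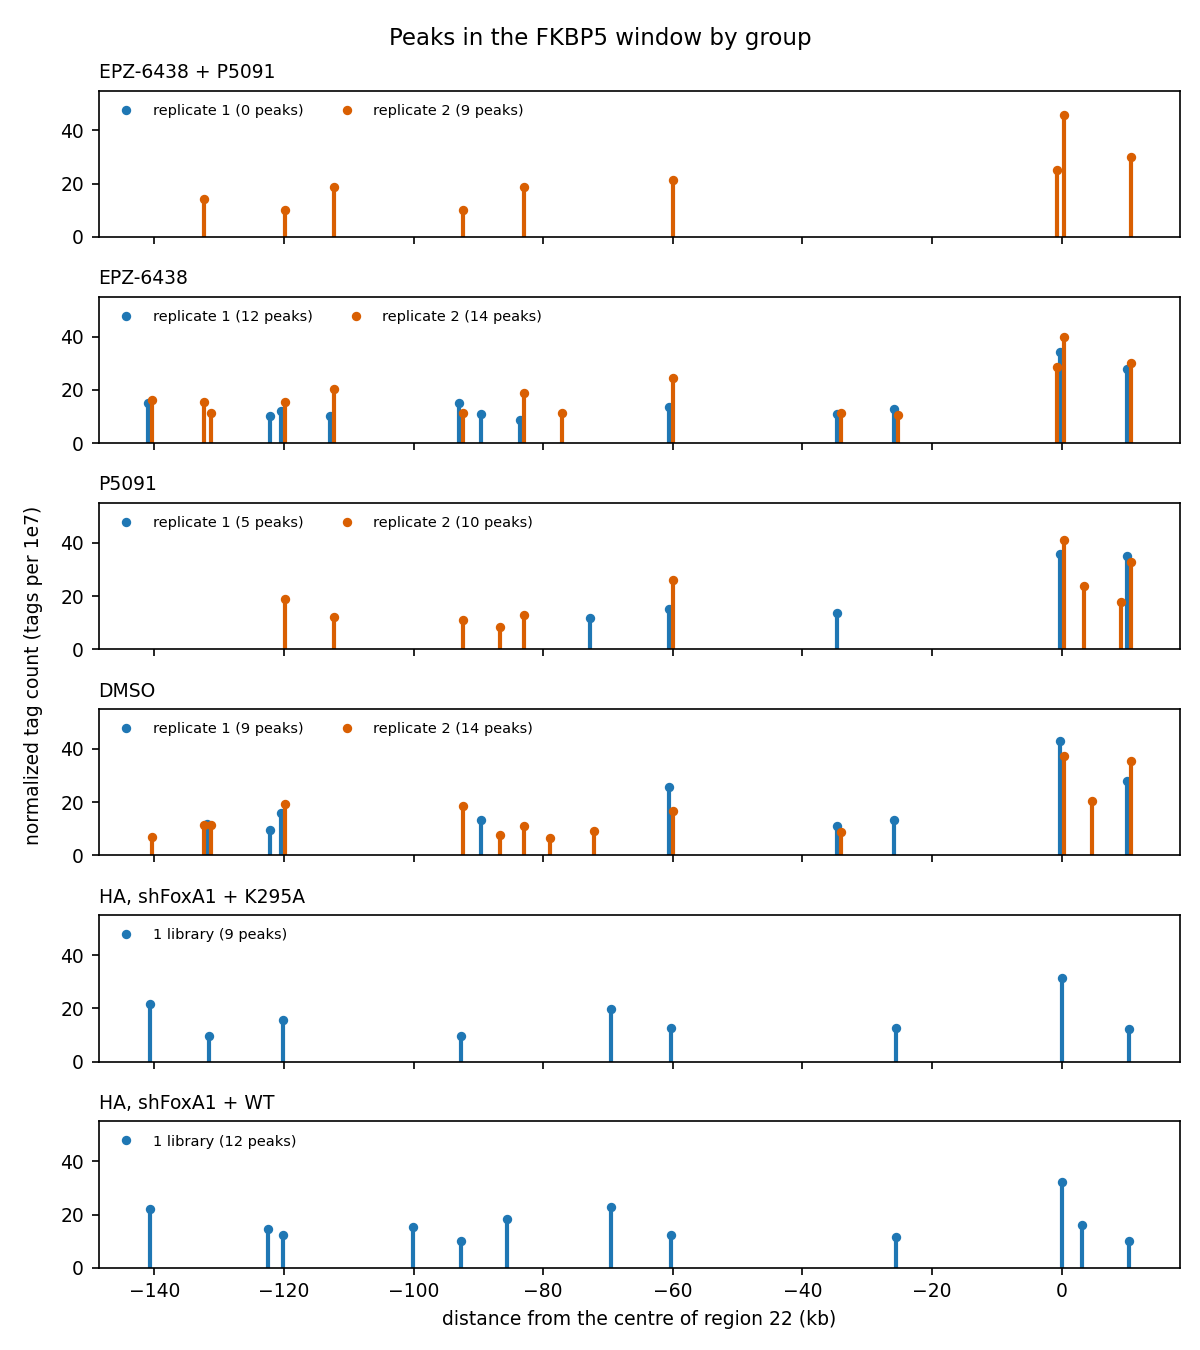
Peaks in the FKBP5 window for each group, as normalized tag count (tags per 1e7 tags of the library) against the distance of the merged region from the centre of region 22 in kb. Each line is 1 peak, replicate 1 blue and replicate 2 orange, drawn slightly apart. The tallest lines stand at regions 22 and 26 in every panel of FOXA1 libraries, and combination replicate 1 has none.

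The libraries differed in how many peaks they placed in the window, and one placed none. The combination had 0 peaks in replicate 1 and 9 in replicate 2, EPZ-6438 had 12 and 14, P5091 had 5 and 10, and DMSO had 9 and 14. Combination replicate 1 is weak throughout: it holds 30811 peaks in all, against 68504 to 84423 in the other 7 FOXA1 libraries, and 5.26% of its tags lie in peaks, against 18.9% to 21.2%. The total tags of the FOXA1 libraries were 12299238 to 22589685. The 3 regions of the FKBP5 window with a peak in all 7 of the others lacked a peak in it. Over the genome 35.8% of 37763 such regions lacked one, and 34.7% of the 16269 whose mean tag count over those 7 libraries lay between those of the 3 FKBP5 regions (20.4 to 39.6). Its tag counts at these 3 regions are not known from a list of peaks, and its calling threshold of 11 tags corresponds to a normalized tag count of 6.88.

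Counts of regions shared between replicates are given as a description of the window only. With EPZ-6438, 10 regions were called in both libraries of 16 called in either, with P5091 3 of 12, and with DMSO 6 of 17. Regions called in both DMSO libraries made up 27.3% of the window's FOXA1 regions, against 40.7% over the genome. These shares are over all FOXA1 regions and not over those called in either DMSO library. Such shares were not analysed for EPZ-6438 and P5091. Genome shares of the regions called in either library of a group were not analysed for any group. P5091 replicate 1 had only 5 peaks in the window (0.730 per 10000 of its peaks, against 1.21 in replicate 2), which limits the number that could be shared. Libraries of replicate 2 alone called 8 of the 22 regions (36.4%, against 27.0% of FOXA1 regions over the genome) and libraries of replicate 1 alone called 2 (9.09%, against 10.4%). Fragment lengths in the file headers also separate the replicate numbers, with lengths of 274 to 278 bases in replicate 1 against 216 to 230 bases in replicate 2, and their part in the calls was not tested.

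**Figure D2:**
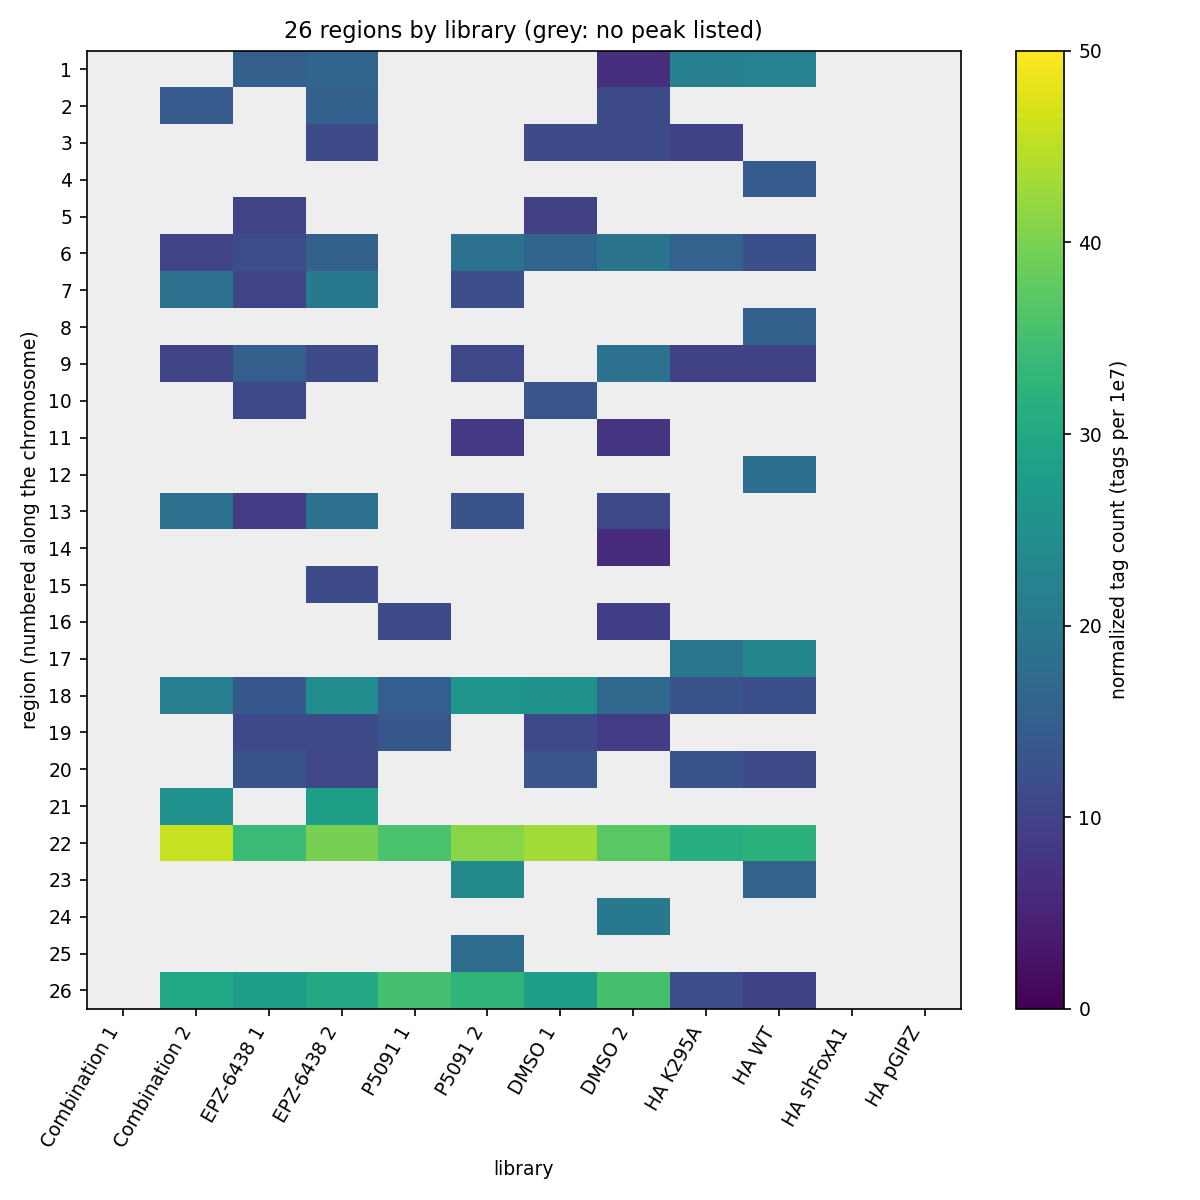
Normalized tag count (colour, tags per 1e7) of each of the 26 regions in each of the 12 libraries, with grey where no peak is listed. Rows 18, 22 and 26 are filled in 7 of the 8 FOXA1 libraries and in both tagged HA libraries, and the columns of combination replicate 1 and of both untagged libraries are empty.

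The strongest site of the locus was region 22 (chr6:35691157-35691561). Its normalized tag count was 45.8 in combination replicate 2, 34.1 and 39.8 in the EPZ-6438 pair, 35.9 and 41.2 in the P5091 pair, and 43.1 and 37.2 in the DMSO pair. All 7 values lie between 34.1 and 45.8, and those of EPZ-6438, P5091 and DMSO overlap. Ranked among the peaks of its own library, region 22 stood between percentiles 78.0 and 89.6. The peak caller's own fold over the surrounding 10 kb was 7.00 to 12.7 and its fold over input 7.15 to 31.7.

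The next strongest was region 26 (chr6:35701499-35701890), 10.3 kb from region 22 between centres. It gave 30 in combination replicate 2, 27.9 and 30.1 in the EPZ-6438 pair, 35.2 and 32.7 in the P5091 pair, and 27.8 and 35.4 in the DMSO pair. The values with the combination, EPZ-6438 and P5091 all lie between those of the DMSO pair, and both P5091 values lie above the combination value and the EPZ-6438 pair. Region 18 (chr6:35630874-35631293), at -60.3 kb from region 22, gave 21.3 in combination replicate 2, 13.7 and 24.4 in the EPZ-6438 pair, 15.0 and 26 in the P5091 pair, and 25.6 and 16.8 in the DMSO pair. Here the replicates differed by more than the groups: replicate 1 was the lower one with EPZ-6438 and with P5091 and the higher one with DMSO. In order of level region 22 lay above region 26, and region 26 above region 18, in each of the 7 libraries.

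No region of the locus was tested in the fit across all 8 FOXA1 libraries (24261 regions), because none had a value in combination replicate 1, so 0 were called. Over the genome that fit (limma, Benjamini-Hochberg adjusted p under 0.05) called 0% of regions for EPZ-6438, P5091 and the combination against DMSO. At an unadjusted p under 0.05 it gave 233 regions for EPZ-6438, 12 for P5091 and 3418 for the combination. The count for the combination depends on which of its libraries is kept: without replicate 2, so that the weak replicate 1 stands alone, 16162 of 24502 regions were called, nearly all lower, and with the replicate block and centring on all 8 libraries 1025 were called. Neither fit could test an FKBP5 region for the combination. The fit without combination replicate 1 tested 37763 regions, among them regions 18, 22 and 26. Its spread for the combination is borrowed from the other groups, since replicate 2 stands alone.

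At the 3 main FKBP5 sites the means with EPZ-6438 and with DMSO differed by less than the SD of the DMSO pair. These 3 sites have a peak in all 7 libraries of the fit, so a peak lost or gained with a compound could not appear among them. Region 22 averaged 37.0 ± 4.03 (SD, n = 2) with EPZ-6438 and 40.2 ± 4.17 (SD, n = 2) with DMSO, region 26 averaged 29.0 ± 1.56 with EPZ-6438 and 31.6 ± 5.37 with DMSO, and region 18 averaged 19.1 ± 7.57 with EPZ-6438 and 21.2 ± 6.22 with DMSO. The log2 difference, on the scale of log2 (tag count + 1), was -0.12 ± 0.34 (SE) at region 22, with a 95% interval of -0.82 to 0.59 and a limma adjusted p of 0.974. At region 26 it was -0.11 (-0.86 to 0.64, limma adjusted p = 0.978) and at region 18 -0.17 (-1.03 to 0.69, limma adjusted p = 0.969). None of the 3 was called, where 0% were called over the genome (2364 at an unadjusted p under 0.05). With the replicate number as a block 1.56% were called over the genome and none of the 3, and the interval at region 22 was -0.68 to 0.44. Without the block, the median difference of the 3 regions of -0.12 compares with -0.080 over all regions tested. The intervals are wide, and a loss or gain of the size of their bounds would not have been detectable with these libraries. By replicate number, region 22 gave 34.1 with EPZ-6438 and 43.1 with DMSO in replicate 1, but 39.8 with EPZ-6438 and 37.2 with DMSO in replicate 2. Region 18 turned in the same way.

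With P5091, too, the means at the 3 sites differed from those with DMSO by less than the SD of the DMSO pair. Region 22 averaged 38.6 ± 3.75 with P5091 and 40.2 ± 4.17 with DMSO (SD, n = 2 each), a log2 difference of -0.057 ± 0.34 (95% interval -0.76 to 0.65, limma adjusted p = 1). Region 26 averaged 34.0 ± 1.77 with P5091 and 31.6 ± 5.37 with DMSO, a log2 difference of 0.11 (-0.64 to 0.86, limma adjusted p = 1). Region 18 averaged 20.5 ± 7.78 with P5091 and 21.2 ± 6.22 with DMSO, a log2 difference of -0.066 (-0.93 to 0.79, limma adjusted p = 1). Called were 0 of 3, beside 0% over the genome (312 at an unadjusted p under 0.05), and the median differences were -0.057 at the locus and -0.017 over all regions.

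The combination could be read from replicate 2 alone. Region 22 stood at 45.8 with the combination, above both DMSO values, and the log2 difference of 0.19 ± 0.42 (95% interval -0.67 to 1.05, limma adjusted p = 0.938) did not pass. At region 26 it was -0.063 (-0.98 to 0.86, limma adjusted p = 0.982), and at region 18 0.035 (-1.02 to 1.09, limma adjusted p = 0.993). Per 300 bases of peak these differences were 0.42 at region 22, 0.17 at region 26 and 0.27 at region 18, none of them called, while the median of all regions tested was 0.13, against -0.097 without this scaling. Again 0 of 3 were called and 0% over the genome, with 2905 at an unadjusted p under 0.05. Without the replicate block, edgeR's quasi-likelihood test on the same 7 libraries also called 0 regions over the genome for EPZ-6438 and for P5091 against DMSO. With the block it called 549 of 37763 for EPZ-6438 and 0 for P5091. All comparisons with DMSO share the same pair of DMSO libraries.

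**Figure D3:**
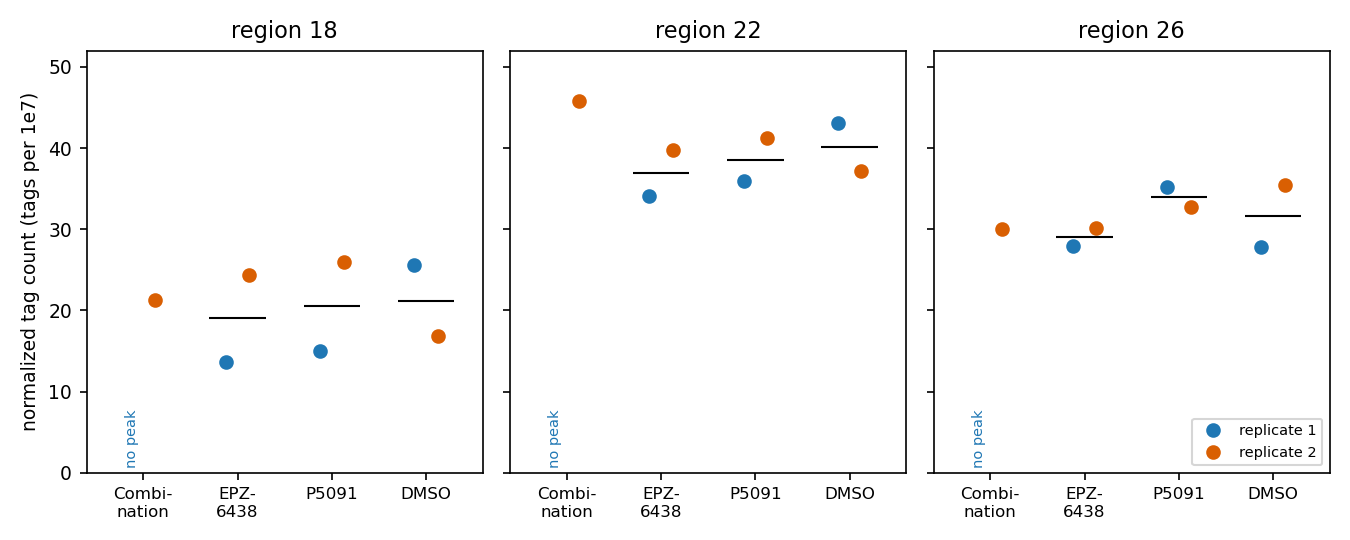
Normalized tag count (tags per 1e7) of regions 18, 22 and 26 in each FOXA1 library by group, replicate 1 blue and replicate 2 orange, with a line at the mean where a group has both. At region 18 the groups overlap, and at region 26 all treated values lie between the DMSO values, with the P5091 pair above the EPZ-6438 pair and the combination. At region 22 the single combination value of 45.8 lies just above the other 6, which run to 43.1.

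Grouping the libraries by compound called none of the 3 regions either. When the libraries treated with EPZ-6438, alone or combined, were set against the rest, the fit on 7 libraries called 0 of the 3 regions, beside 0.0185% over the genome, with log2 differences of 0.064 at region 22, -0.14 at region 26 and -0.035 at region 18. For P5091, alone or combined, it called 0 of 3, beside 0% (563 at an unadjusted p under 0.05), with 0.12 at region 22, 0.079 at region 26 and 0.070 at region 18. With the replicate number as a block, the share called over the genome became 1.56% for EPZ-6438 against DMSO, 0.604% for the combination and 3.77% for all libraries with EPZ-6438, and 0 of the 3 FKBP5 regions were among them. With the block, and values centred by library medians, the shares were 1.64%, 0.564% and 3.97%, again with 0 of 3.

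The weaker sites were compared among regions called in at least 4 FOXA1 libraries, with missing values left out. A library with no peak in a region gives no value there, so values under its calling thresholds are left out and a loss or a gain can be understated. In the window 8 regions reached 4 libraries, and 7 had a value in both groups for EPZ-6438 and for P5091 and 6 for the combination. Called were 0 of 7, 0 of 7 and 0 of 6, beside 0% over the genome in each comparison (limma adjusted p; 2195, 812 and 6431 regions at an unadjusted p under 0.05). The median log2 differences were -0.12 for EPZ-6438, 0.091 for P5091 and -0.014 for the combination, against -0.031, -0.0015 and -0.31 over all regions tested. For the combination these medians are not alike: the FKBP5 values come from replicate 2 alone, while the genome median also draws on the weak replicate 1. In the fit without replicate 1 the genome median was -0.097. With the replicate block and centring the shares called over the genome were 0.104%, 0.0015% and 1.48%, and again 0 of 7, 0 of 7 and 0 of 6 FKBP5 regions were called. The locus medians were then -0.099, -0.056 and -0.16, so that the direction for P5091 turned. In that fit 2.1% of regions were called for EPZ-6438, alone or combined, against the rest and 0.00175% for P5091, and 0 of 6 FKBP5 regions in each.

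Region 9 (chr6:35598322-35598958) had the smallest unadjusted p of the locus in each of the 3 comparisons with DMSO without the block. With the block and centring region 6 had the smallest for the combination (log2 difference -0.90, limma adjusted p = 0.398). Region 9 gave 10.3 in combination replicate 2, 15.1 and 11.4 with EPZ-6438, 10.9 in P5091 replicate 2 and 18.6 in DMSO replicate 2, and no peak in the other 3 libraries. The single DMSO value is the highest of the 5. Region 9 is 637 bases wide, and its peaks are shifted against each other. Its EPZ-6438 replicate 2 peak (35598322-35598612) and its P5091 replicate 2 peak (35598549-35598845) overlap only at their edges. DMSO, P5091 and the combination have 1 library each here, so their p-values compare single libraries, with a spread taken from the EPZ-6438 pair and, through limma, from other regions. The log2 differences were -0.79 for the combination (limma adjusted p = 0.556), -0.47 for EPZ-6438 (limma adjusted p = 1) and -0.72 for P5091 (limma adjusted p = 1), and that for P5091, alone or combined, against the rest was -0.52 (limma adjusted p = 0.968). Region 6 (chr6:35570961-35571414) had the smallest p for EPZ-6438, alone or combined, against the rest. It gave 10.3 in combination replicate 2 and 12 and 15.4 with EPZ-6438, against 18.8 in P5091 replicate 2 and 16.1 and 19.2 with DMSO. All 3 values with EPZ-6438 lie below all 3 without, and the log2 difference of -0.58 ± 0.36 did not pass (limma adjusted p = 0.636, beside 0.0105% called over the genome). Region 13 (chr6:35607858-35608236) lay the other way, with 18.9 in combination replicate 2 and 8.85 and 18.7 with EPZ-6438, against 12.7 in P5091 replicate 2 and 11 in DMSO replicate 2, and its values overlap. Region 20 (chr6:35665559-35665930) gave 12.8 and 10.6 with EPZ-6438 and 13.2 in DMSO replicate 1. Regions 2, 5, 10, 11, 14, 15 and 16 had peaks in 1 to 3 FOXA1 libraries each, with tag counts between 6.39 and 15.4.

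Gains and losses of whole peaks were few and near the background share. A peak in both EPZ-6438 libraries and in neither DMSO library was found at 1 of 20 regions called in any of the 4, region 7 (chr6:35578565-35578986), where 4.76% of such regions over the genome show this pattern. Region 7 gave 18.9 in combination replicate 2, 10.2 and 20.3 with EPZ-6438 and 12.1 in P5091 replicate 2, with no peak with DMSO. The reverse pattern, both DMSO libraries and neither EPZ-6438 library, was found at 0 of 20 (3.48% over the genome). For P5091 the patterns were found at 0 of 20 (2.49%) and 1 of 20 (2.75%). The single loss was region 3 (chr6:35559545-35560123), with no peak with P5091 and 11.7 and 11.6 with DMSO. For the combination they were found at 0 of 19 (0.739%) and 2 of 19 (7.01%), at regions 3 and 19 (chr6:35656756-35657329), and here the absence in replicate 1 holds for the whole window. Region 19 gave 11.1 and 11.4 with EPZ-6438, 13.7 in P5091 replicate 1 and 11 and 8.71 with DMSO.

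A few peaks of moderate level appeared in 1 or 2 libraries around region 22, and were chosen after their values were seen. Region 21 (chr6:35690246-35690575) lies 581 bases from region 22 and gave 25.3 in combination replicate 2 and 28.5 in EPZ-6438 replicate 2, with no peak elsewhere. Both libraries were treated with EPZ-6438, but EPZ-6438 replicate 1, the deepest library, has no peak there. The fold over the surrounding 10 kb was 6.14 and 6.93 for this region, where 4 is required, in a window that also holds region 22. Region 23 (chr6:35694295-35694846) gave 23.6 in P5091 replicate 2 alone among the FOXA1 libraries, region 24 (chr6:35695658-35695946) gave 20.3 in DMSO replicate 2 alone, and region 25 (chr6:35700012-35700308) gave 17.6 in P5091 replicate 2 alone. All of these are libraries of replicate 2. Among the FOXA1 peaks of those libraries, regions 23, 24 and 25 stood at percentiles 68.3, 63.4 and 53.6. Their folds over the surrounding 10 kb were 5.63, 4.78 and 6.02. Region 21 stood at percentile 71.4 in combination replicate 2 and 74.8 in EPZ-6438 replicate 2. Of the FOXA1 regions 2 were called only in libraries with EPZ-6438 (9.09%, against 18.3% over the genome), regions 15 and 21. Only in libraries without it 6 were called (27.3%, against 17.4%). Combination replicate 1, a library with EPZ-6438, has no peak in the window but has peaks elsewhere. Its absence can lower the first share and raise the second, so they do not compare evenly with the genome.

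Tagged FOXA1 with the K295A substitution shared 8 FKBP5 regions with the tagged WT protein. The K295A library had peaks at 9 regions and the WT library at 12. Over the genome these lists held 81607 peaks with K295A and 97120 with WT. Per 10000 peaks of its list, the window held 1.10 with K295A and 1.24 with WT. The shFoxA1 and pGIPZ libraries, which carry no tag, had none in the window. Their lists held only 971 and 982 peaks over the genome. With lists this short, an absence from a single window says little about that window. At region 22, the strongest in both, the tag count was 31.6 with K295A and 32.1 with WT, from 42 tags in each library, a ratio of 0.987 (95% exact binomial counting interval 0.628 to 1.55). The widest departures were at region 6, with 15.8 for K295A and 12.2 for WT (ratio 1.30, 0.644 to 2.66), and region 17 (chr6:35621692-35622006), with 19.6 for K295A and 22.9 for WT (ratio 0.855, 0.486 to 1.5). All 8 intervals include 1. These are the regions called in both libraries, and the 5 called in 1 of them are left out, so the ratios do not cover them. All peaks of the window held 194 tags in 9 peaks with K295A and 258 tags in 12 peaks with WT. The median log2 ratio over the 8 regions was 0.025, against -0.089 over the 68151 regions of the genome chosen in the same way. It turned to -0.023 over the 3 regions left at a score of at least 17 and was 0.054 per 300 bases of peak. At the 8 regions 0 differed by 2-fold or more, against 3.22% over the genome. Each condition has 1 library, so no difference has a replicate check, and intervals cover counting error only.

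**Figure D4:**
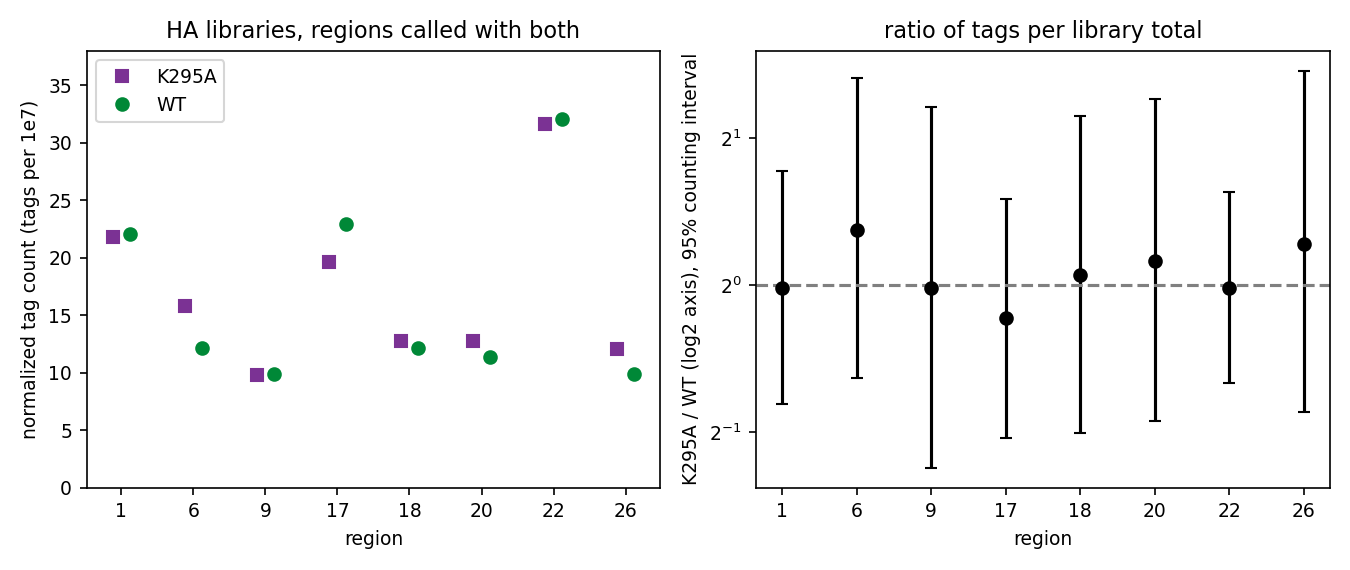
Left, normalized tag count (tags per 1e7) with K295A and WT at the 8 FKBP5 regions called in both HA libraries. Right, the ratio of K295A over WT on a log2 axis with 95% exact binomial counting intervals, where the dashed line marks equal values and lies within every interval.

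The regions called in a single tagged library were of moderate or low level. Region 3 was called with K295A alone, at 9.79, close to that library's threshold of 8.29. Regions 4, 8, 12 and 23 were called with WT alone, at 14.5, 15.3, 18.3 and 16.0, where the WT threshold is 7.63. A list of peaks gives no value for the other library at these sites. The lists were made at thresholds of 11 tags for K295A and 10 for WT.

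Tagged and endogenous FOXA1 shared the leading site but ranked others differently. Of the 13 regions with an HA peak 9 also had a FOXA1 peak, and of the 6 called in both DMSO libraries 5 had a K295A peak and 4 a WT peak. The shares of such overlaps over the genome were not analysed here, so these counts describe the window only. Region 23 is among the 9, though its WT peak (35694295-35694599) and its P5091 replicate 2 peak (35694550-35694846) overlap only at their edges. Region 22 stood at percentile 84.2 of the K295A peaks and 85.2 of the WT peaks, near its place in the FOXA1 lists. Region 26 stood at percentile 26.6 with K295A (12.1) and 14.5 with WT (9.92), whereas with DMSO (27.8 and 35.4) it stood at percentiles 67.5 and 83.0. Region 1 went the other way, with 21.8 for K295A and 22.1 for WT at percentiles 69.2 and 71.0 of their lists, and with DMSO a peak of 6.97 in replicate 2 alone, at percentile 1.84. With EPZ-6438 region 1 gave 15.1 and 16.3, and it had no peak with P5091 or the combination. Region 17 had peaks with both tagged proteins and in no FOXA1 library. The HA lists had no input filter and come from another antibody, after infection and shorter culture, and these differences cannot be told apart from that of tagged and endogenous protein.

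Across the 7 libraries the tag count of region 18, centred on each library's median, went with that of region 22 with Pearson r = 0.667, and that of region 26 with r = -0.164. These 3 were the only FKBP5 regions with 7 values, the points share library and depth, and the values are given as a description.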

How the data were processed

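The deposited files are HOMER peak lists, 1 per library. Bowtie2 and HOMER 4.2 with the build hg19 are named in the submitters' processing notes. Per the file headers, findPeaks called peaks per library with its factor settings, a false discovery rate threshold of 0.001, and a local filter (10000 bases) of 4-fold and a Poisson p of 0.0001; the FOXA1 lists were also filtered at the same fold over an input library, and the HA lists had none. The normalized tag count is a signal, the tags of a peak scaled to 10000000 per library, per the file headers. A score deposited with each peak served for stricter thresholds (17 for HA, 20 for FOXA1), and fold values over the local window and over input are deposited ratios from HOMER. Deposited total tag counts exist for 3 libraries; tags recovered from the normalized value were whole in 100% of peaks within print rounding, and equalled the deposited count in 97.3%, 100% and 100%. They were used for edgeR and counting intervals.

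Peaks of all 12 files were merged over the genome where they shared at least 1 base, and a library's highest peak gave its value. limma (3.58.1, trend on, R 4.3.3) was run on log2 (tag count + 1) with 4 groups and Benjamini-Hochberg adjustment over all regions, at 0.05; differences on this scale understate changes of weak regions. The planned fit needs a value in all 8 FOXA1 libraries and held no FKBP5 region, so the planned fits without combination replicate 1 and with at least 4 libraries are reported. The planned rule named the strongest regions called in all 8, of which there were 0; regions 18, 22 and 26, called in the other 7, were named after their values were seen, as were those described for single features. Regions 6 and 9 follow the rule of the smallest p per comparison. The window, members and tests were chosen with earlier results of these data known. Merging and limma steps were tested on simulated data. Alternatives were the replicate block, centring, edgeR (4.0.16, quasi-likelihood, TMM), a pseudocount of 5, other merging, summing, score and width choices, and leaving out each library. Replicate numbers come from the titles. Deviations of replicate 1 from its group mean correlated between groups by 0.148 to 0.488 over 24261 regions, all above 0.1, so the numbers were taken to pair the libraries. The planned fits had no block. Intervals and adjusted p-values given for single regions therefore ignore this pairing unless the block is named. Promoter sequences were read from a RefSeq table.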

Additional observations from a re-analysis of the deposited data

How the results depend on the processing

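No FKBP5 region was called in any comparison under any of the 182 alternatives computed for the counts; 97 of these had at least 1 FKBP5 region to test, the lowest unadjusted p was 0.076 and the lowest adjusted p 0.398, and edgeR, with and without replicate block, called 0 of the 3 regions as limma did. In the fit of 8 libraries 0 regions of the locus could be tested, so its 0 calls say nothing of stability. The number of FKBP5 regions with a peak in every library kept ran from 0 to 3 when 1 library was left out, the 3 being reached without combination replicate 1. With a score of at least 17 the regions called fell to 5 of 12 with WT and to 3 of 9 with K295A.

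Of 277 alternatives for the log2 differences at named regions 247 kept their direction, 30 turned it and 0 passed the threshold. Leaving out 1 further library gave ranges of -0.57 to 0.22 (EPZ-6438), -0.44 to 0.31 (P5091) and -0.25 to 0.33 (combination) at region 18, of -0.16 to 0.047 (P5091) at region 22, and of -0.28 to 0.058 (EPZ-6438), -0.060 to 0.28 (P5091) and -0.23 to 0.11 (combination) at region 26; at region 22 EPZ-6438 stayed below DMSO (-0.23 to -0.0086) and the combination above (0.086 to 0.29). For the combination at region 18 the difference turned to -0.13 with replicate block, -0.072 with replicate block and centring, -0.061 with edgeR and the block, and -0.17 with block and centring over at least 4 libraries. At region 26 it turned to 0.0039 with centring, 0.013 with edgeR and 0.17 per 300 bases of peak. For EPZ-6438, alone or combined, against the rest, region 18 turned to 0.022 with centring, 0.016 with edgeR and 0.082 per 300 bases, and ran from -0.23 to 0.16 with 1 library left out. For P5091, alone or combined, region 18 turned to -0.010 with replicate block, -0.0072 with block and centring and -0.046 with both over at least 4 libraries, and ran from -0.13 to 0.27 with 1 library left out, as region 26 did from -0.0056 to 0.16. The cause was not tested. The block, scaling and further left-out libraries on 7 libraries were added after seeing the data.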
